A study of Mus musculus with 2 samples.

Results

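The SLAM family genes of mouse CD8+ T cells were compared between cells after 1 and cells after 2 rounds of stimulation in culture. The group comprises 8 genes: the 7 receptor genes Slamf1, Slamf6, Slamf7, Ly9, Cd48, Cd84 and Cd244a, and Sh2d1a, the gene of the adaptor SAP. They were taken by symbol, as probes annotated to exactly 1 of these genes with a value on both arrays. All 8 genes were measured, each by 1 probe, out of 14150 genes measured in this way. The family was chosen by the log ratio of Slamf6, which lies among the genes farthest on the positive side of this same comparison, so the values below are descriptions and carry no test.

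The cells were effector CD8+ T cells of pmel mice, a transgenic strain whose T cells recognise the melanocyte antigen gp100. Each of 2 two-colour arrays carried total RNA of cells after 1 stimulation in channel 1 and of cells after 2 stimulations in channel 2, and the second array is labelled a repeat of the first. Both stages come from the same transgenic background, and no unstimulated cells are part of the comparison. Whether that repeat came from a separate culture is not stated, and the spread between arrays may be technical. Each probe has 1 log ratio between the channels per array, read here in base 2. The numerator is not stated. The order of the channels and titles makes 1 stimulation over 2 likely, so that a positive value would be RNA more abundant after 1 stimulation. With the opposite order every sign turns. In RNA of whole cultures, fewer cells of a type and less RNA per cell cannot be told apart. Ratios also carry no level, so they cannot check the CD8+ label. Cd8a read 0.03 and 0.74 on 1 probe and 0.71 and 1.06 on the other, and Cd8b1 0.21 and 0.16.

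SLAM receptors are immunoglobulin-type surface proteins of blood cells. Most of them bind a copy of themselves on a neighbouring cell, whereas the CD244 receptor binds CD48, which is held in the membrane by a lipid anchor. The tails of most signalling members carry tyrosine motifs that recruit the small adaptor SAP. SAP brings in the kinase FYN, and without SAP the same motifs can recruit inhibitory phosphatases. In CD8+ T cells the family is known for adjusting killing and helping contacts with B cells and other lymphocytes, and Slamf6 is widely used as a surface marker of less-differentiated, self-renewing T cells in chronic infection and tumours.

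The upstream sequences of the highest gene by mean ratio, Slamf6, of Cd84, which follows it, and of the lowest, Slamf7, are shown because they give the top and the bottom of the order of the family. Each is the 250 bases before the gene's start in RefSeq (GRCm38.p6), 5′ to 3′ in the direction of the gene. Capitals mark matches, on either strand, to GGAA (the core bound by ETS factors), TGTGGT (a RUNX motif) and CTTTG (a core of TCF/LEF motifs). No matches to different motifs overlap in them.
Slamf6 (chr1:171917212-171917461, + strand): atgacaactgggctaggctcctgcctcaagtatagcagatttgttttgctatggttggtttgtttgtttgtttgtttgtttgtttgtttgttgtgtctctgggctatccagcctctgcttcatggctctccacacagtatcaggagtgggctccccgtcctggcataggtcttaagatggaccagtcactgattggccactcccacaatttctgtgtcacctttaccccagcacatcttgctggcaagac
Cd84 (chr1:171839447-171839696, + strand): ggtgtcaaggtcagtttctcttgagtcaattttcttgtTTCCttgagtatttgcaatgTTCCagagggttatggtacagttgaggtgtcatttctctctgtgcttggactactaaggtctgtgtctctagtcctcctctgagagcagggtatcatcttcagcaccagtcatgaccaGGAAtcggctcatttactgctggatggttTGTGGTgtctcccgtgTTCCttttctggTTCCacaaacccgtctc
Slamf7 (chr1:171649000-171649249, - strand): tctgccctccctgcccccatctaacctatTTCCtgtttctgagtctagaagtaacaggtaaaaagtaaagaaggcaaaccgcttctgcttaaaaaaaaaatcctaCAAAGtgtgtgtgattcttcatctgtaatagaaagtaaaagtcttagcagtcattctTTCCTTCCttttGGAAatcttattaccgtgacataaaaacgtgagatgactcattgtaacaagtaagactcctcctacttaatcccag
The Slamf6 window held 0 matches to any of the 3 motifs, as did 3.33% of the 32851 windows of this length in the RefSeq table. The Cd84 window held 5 GGAA matches and 1 TGTGGT match, and the Slamf7 window 4 GGAA matches and 1 CTTTG match. Over all windows, 93.4% held GGAA, 14.0% TGTGGT and 48.6% CTTTG. Such matches describe letters, not binding, and a window with none says nothing about the factors. Windows were also found for Slamf1, Cd48 and Cd244a, giving 6 of the 8 genes.

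Among the receptors, Slamf6, also called Ly108, stood apart. It read 1.87 on array 1 and 3.0 on array 2, a 3.66-fold and an 8.0-fold ratio. Both values are far on the positive side, and the mean was 2.44 ± 0.80 (SD, n = 2), or 5.41-fold. By mean Slamf6 ranked 4 of 14150 genes from the positive end, and it ranked 8 on array 1 and 7 on array 2. It was the single family gene at least 2-fold on both arrays, where 0.954% of all genes were so on the same side, 0.233% on the positive and 0.721% on the negative one. The value that picked the family is therefore that of 1 probe.

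Cd84 and Ly9, whose products are self-binding receptors of lymphocytes, followed well below. Cd84 read 0.39 and 0.78, a mean of 0.59 ± 0.28 (SD, n = 2) that lay above 96.9% of all genes. Ly9 read 0.53 and 0.49, with a mean of 0.51 ± 0.03 (SD, n = 2), above 95.8% of genes. Both genes were positive on both arrays, Ly9 with close agreement and Cd84 more so on array 2. Slamf1 encodes CD150, the founding member of the family. It read 0.16 and 0.03, a mean of 0.10 ± 0.09 (SD, n = 2), which put it near the middle of all genes on array 2.

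The 3 remaining receptor genes had means below 0. Slamf7, also called CRACC, is found on natural killer cells and activated lymphocytes. It read -0.74 and -0.36 and was the single family gene negative on both arrays, at -0.55 ± 0.27 (SD, n = 2), or 1.46-fold. Cd244a, the gene of the receptor 2B4 of natural killer and effector CD8+ T cells, read -0.96 on array 1 and 0.01 on array 2. The mean of -0.48 ± 0.69 (SD, n = 2) thus came from array 1 alone, where 1.73% of genes lay lower, against 52.6% on array 2. Its arrays differed by 0.97 and those of Slamf6 by 1.13, the largest difference in the family. Over all probes the difference between arrays had an SD of 0.422. Cd48, the ligand of the CD244 receptor, turned its sign too, with 0.18 and -0.24 and a mean of -0.03 ± 0.30 (SD, n = 2). Neither side can therefore be named for Cd244a or Cd48.

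Sh2d1a, the adaptor gene, read 0.22 and 0.67. It was positive on both arrays, more so on array 2, with a mean of 0.45 ± 0.32 (SD, n = 2) and 94.4% of genes below it.

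**Figure D1:**
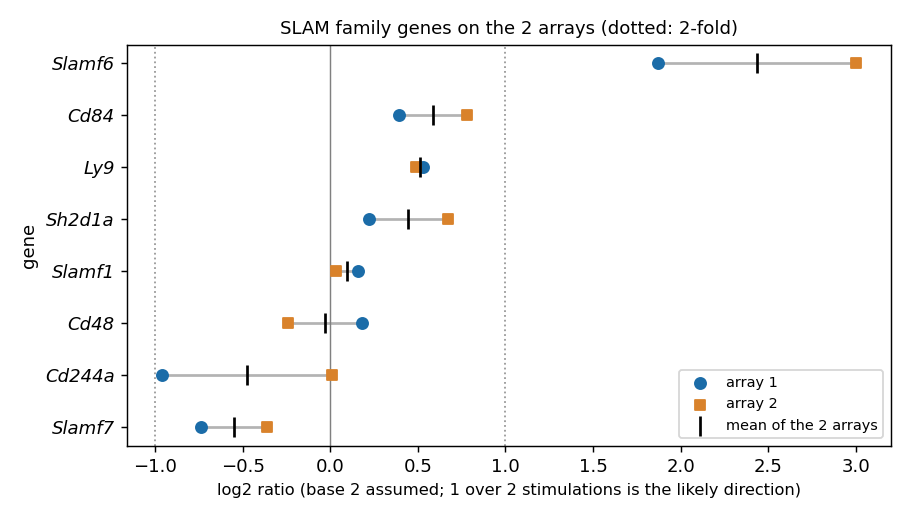
Log2 ratio of each SLAM family gene (rows, ordered by mean) on array 1 (circles) and array 2 (squares), with the mean as a bar, a grey line joining the arrays and dotted lines at 2-fold. Slamf6 lies beyond 2-fold on both arrays at 1.87 and 3.0, while each of the other means lies within 0.59 of 0.

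Over the family, 5 genes were positive on both arrays, 1 was negative on both and 2 turned their sign. Of all genes 29.6% were positive on both arrays, 33.6% negative on both, and 36.8% turned or stood at 0 on an array. The median over the 8 genes was 0.27, with 0.20 on array 1 and 0.26 on array 2, against -0.02 over all genes. Without Slamf6 the median of the other 7 was 0.10. The SD over the means of the 8 genes was 0.936, and 0.464 without Slamf6, against 0.365 over all genes. The family was thus spread over both sides of 0. For scale, the median half-width of the 95% interval of a probe's mean was 0.396 in limma's fit. The interval is wider for probes whose arrays differ more, such as those of Cd244a and Slamf6.

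By mean ratio the genes ran in the order Slamf6, Cd84, Ly9, Sh2d1a, Slamf1, Cd48, Cd244a and Slamf7. Of the 28 pairs that can be formed, 23 kept their order on both arrays, among them the 7 pairs with Slamf6. Those 7 follow from the choice of the family by the far value of Slamf6. Without them 16 of 21 pairs kept their order, and no such share was computed for other genes. An order counted as kept by direction alone, however small the step, such as 0.02 on array 2 from Slamf1 to Cd244a. A kept order is therefore not always a resolved one. Slamf6 exceeded Cd84, its nearest in the order, by 1.48 on array 1 and 2.22 on array 2. The neighbours Cd84 and Ly9, Ly9 and Sh2d1a, Slamf1 and Cd48, Cd48 and Cd244a, and Cd244a and Slamf7 changed places between arrays, so their order is not resolved. The step from Sh2d1a to Slamf1 kept its direction, with 0.06 and 0.64.

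Likeness to Slamf6 was taken as Euclidean distance over the 2 arrays, with each gene represented by its nearest probe. The nearest genes were Dapl1 (distance 0.26), H2-Oa (0.36), Smpdl3a (0.45), Abca3 (0.54) and Id3 (0.63). Dapl1 read 1.97 and 3.24 and the class II gene H2-Oa 1.90 and 3.36, both slightly beyond Slamf6. Smpdl3a read 1.48 and 3.22, Abca3 1.34 and 2.91, and Id3, whose product blocks E-protein transcription factors, 2.08 and 2.41. No other SLAM family gene came near these values.

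**Figure D2:**
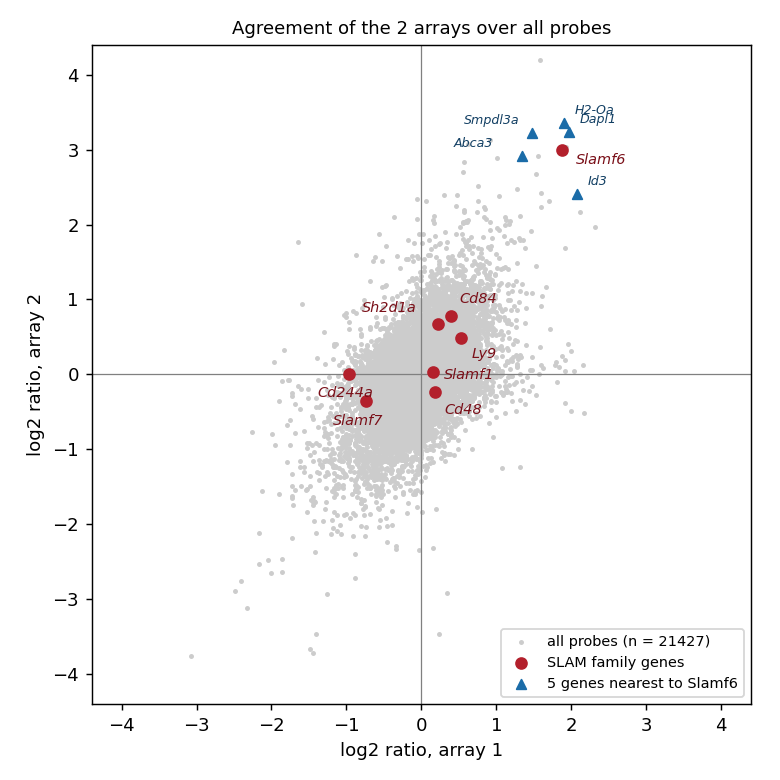
Log2 ratio on array 1 (x) against array 2 (y) for the 21427 probes with both values (grey), the SLAM family genes (circles) and the 5 genes nearest to Slamf6 (triangles). Slamf6 at 1.87 and 3.0 lies at the upper right edge of the probes, and the other family genes lie inside the main cloud.

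The 7 receptor genes lie side by side on mouse chromosome 1, in the RefSeq order (GRCm38.p6) Cd244a, Ly9, Slamf7, Cd48, Slamf1, Cd84 and Slamf6. The adaptor gene Sh2d1a lies elsewhere. Between the outermost receptor genes the RefSeq table lists 8 further entries, 1 of them protein-coding, and none was measured here. Ratios did not follow one direction along the row: Ly9, at 0.51, stands between Cd244a at -0.48 and Slamf7 at -0.55, and the 2 genes at the Slamf6 end are the 2 highest. The step up at that end was abrupt on both sides. Cd84, on one side of Slamf6, read 0.39 and 0.78, and Vangl2, the next measured gene on the other side, read -0.18 and 0.27. The 5 measured genes on each side of the row had means between -0.75 (Alyref2) and 0.29 (Nhlh1), with 3 positive and 4 negative on both arrays, and 0 of these 10 were 2-fold on both. On the Cd244a side, Alyref2 read -0.92 and -0.58 and Itln1 -0.61 and -0.85. Nectin4 read -0.16 and -0.66, Klhdc9 0.01 and 0.29, and Usf1 -0.03 and 0.20. Beyond Slamf6 and Vangl2, the values were 0.10 and 0.47 for Nhlh1, -0.11 and -0.05 for Ncstn, 0.02 and 0.09 for Copa, and 0.09 and -0.24 for Pex19. Slamf6 was thus the sole gene of this stretch beyond 2-fold on both arrays among those measured.

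**Figure D3:**
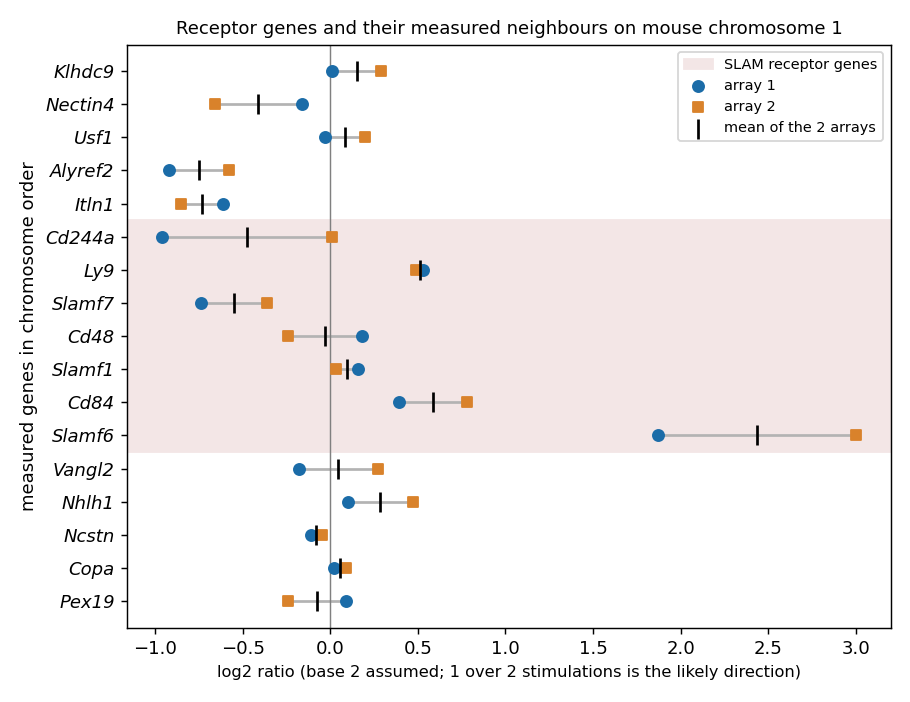
Log2 ratios on both arrays for the 7 receptor genes (shaded) and the 5 measured genes on each side, in chromosome order from top to bottom and not to scale; circles are array 1, squares array 2 and bars the mean. Slamf6 at the lower end of the shaded row is the one gene beyond 2-fold on both arrays, and its measured neighbours Cd84 and Vangl2 have means of 0.59 and 0.05.

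Of 8 listed relatives of the family, 5 were measured. Sh2d1b1 encodes EAT-2, a second SAP-type adaptor known from natural killer and antigen-presenting cells. It read -0.69 and -1.86, on the negative side of both arrays, with a mean of -1.28 ± 0.83 (SD, n = 2), or 2.42-fold. The SAP gene lay above it by 0.91 on array 1 and 2.53 on array 2, so the adaptor genes stood on opposite sides of 0. The natural killer marker Klrb1c read -0.77 and -1.88 on the same arrays, and 3 of 6 natural killer markers were negative and 1 positive on both, with a median of -0.04. Ncr1, a defining marker of those cells, read -0.27 and -0.25, and the killer granzyme gene Gzmm -0.47 and -0.65. The Ly49 receptor genes of the list had positive means, with 0.86 and 0.06 for Klra8, -0.25 and 0.63 for Klra7, and probe means of 0.44 and 0.16 for Klra4. Their part in the Sh2d1b1 value was not tested. Cd2, a close relative of the family that also binds CD48, read 0.19 and 0.96, with a mean of 0.58 ± 0.54 (SD, n = 2). Among proteins that bind the CD2 tail, Cd2ap read -0.04 and -0.12 and Cd2bp2 -0.12 and 0.14. The 2 probes of Pstpip1 gave means of -0.28 and 0.19. Slamf8, Slamf9 and Sh2d1b2 were not analysed here.

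Genes of the signalling steps below SLAM receptors were found on both sides. Of 25 listed genes 18 were measured, by 21 probes, with 7 genes positive and 7 negative on both; the median was -0.06. In limma's moderated test with Benjamini-Hochberg adjustment over 21427 probes, 0 of the 21 probes passed in either direction, as 0% of all probes did. At an unadjusted p under 0.05 there were 6 of the 21 probes, against 14.9% of all probes. The list was chosen with earlier results of these data known, so this count is a description. limma with a robust prior also called 0, and without moderation of the spread 1 was called, the Ptpn6 probe with -0.06 on both arrays. Rasa1, a GTPase-activating protein that restrains RAS, was the single gene of the list at least 1.5-fold on the same side of both arrays, where 4.25% of all genes were, at 0.59 and 0.60.

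The members of this list named next were chosen after their values were seen. Fyn, the kinase that SAP recruits, read -0.75 and -0.01, so its negative mean came from array 1. Prkcq, a protein kinase C of T cells that acts below FYN, read 0.38 and 0.78. The inhibitory lipid phosphatase gene Inpp5d (SHIP-1) read -0.51 and -0.53. Of the tyrosine phosphatases, Ptpn6 (SHP-1) gave probe means of -0.06 and 0.26, and Ptpn11 (SHP-2) gave -0.02 and -0.44. Lat, the scaffold of T cell receptor signalling, read 0.48 and 0.33. Sh3bp2, an adaptor that binds the CD244 receptor, was lowest of the list with -0.55 and -1.60, a mean of -1.08 ± 0.74 (SD, n = 2). The kinase, its adaptor and the phosphatases thus did not share a side.

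Other receptor families of T cells also held genes on both sides of 0. Of 9 measured genes of the CD28 family and inhibitory receptors, 6 were positive and 2 negative on both, and the median was 0.35. Of 12 measured TNF receptor genes, 4 were positive and 4 negative on both, with a median of 0.07. Neither list was compared with the SLAM genes by a test. Ctla4, an inhibitory receptor of the CD28 family, reached 1.12 and 2.10 as the highest of its list, and Slamf6 lay above it by 0.75 and 0.90 on the arrays. Cd27, the highest of the TNF receptor genes, read 0.85 and 2.21, and Slamf6 lay above it by 1.02 and 0.79. In limma's test 0 probes of either list passed over all probes, and 0 by the robust prior or by an unmoderated test. At an unadjusted p under 0.05 there were 4 of 9 and 5 of 14 probes, against 14.9% of all probes. Both lists were chosen with earlier results of these data known, so these counts are descriptions.

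SLAM receptors are not restricted to T cells, so markers of other cells are given beside the family. Of 10 measured B cell markers, 6 were positive and 1 negative on both, and the median was 0.22, the side on which Slamf6, Cd84 and Ly9 lay. The B cell receptor chain genes Cd79a and Cd79b read 0.31 and 1.06, and 0.67 and 1.62. The B cell coreceptor gene Cd72 read 0.57 and 2.19. Ms4a1, the gene of CD20, read 0.11 and 0.08, and Pax5, the defining transcription factor of B cells, 0.21 and -0.06. Immunoglobulin and class II genes, which B cells express strongly and which were picked here after their values were seen, held probes far on the same side and others near 0. Of 4 Ighm probes the highest read 2.32 and 1.97, against 1.87 and 3.0 for Slamf6. The next read 0.91 and 1.14, while the others had means of 0.42 and 0.30. Of 32 probes annotated to Ighv6-6 the highest read 2.11 and 2.17, and their median was -0.02. The 2 Igkc probes had means of 0.30 and 0.16, and Ighd read 0.03 and -0.60. The class II gene H2-Eb1 read 0.57 and 2.84, H2-DMa 0.56 and 2.70, H2-Ab1 0.30 and 2.40, and Cd74, the class II invariant chain, 0.06 and 2.32, each far higher on array 2. Other class II probes varied. Higher on array 2 were also H2-Oa, at 1.90 and 3.36, and H2-Ob, at 0.33 and 1.69. H2-DMb1 read 0.68 and 1.01, H2-DMb2 0.68 and 0.49, and H2-Ea 0.38 and -0.04. The part of these genes and markers in the Slamf6, Cd84 and Ly9 values was not tested. Of 9 measured macrophage and dendritic cell markers 2 were positive and 3 negative on both, with a median of -0.06. The highest of them, Fcgr1, read 0.24 and 1.43, more so on array 2, and Itgam read -0.04 and -0.37. Of 4 CD4 T cell markers 2 were positive and 0 negative on both, and Cd4 itself read -0.11 and 0.02. Of 7 CD8 T cell markers 5 were positive and 0 negative on both, with a median of 0.19. Csf1r was not analysed here.

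**Figure D4:**
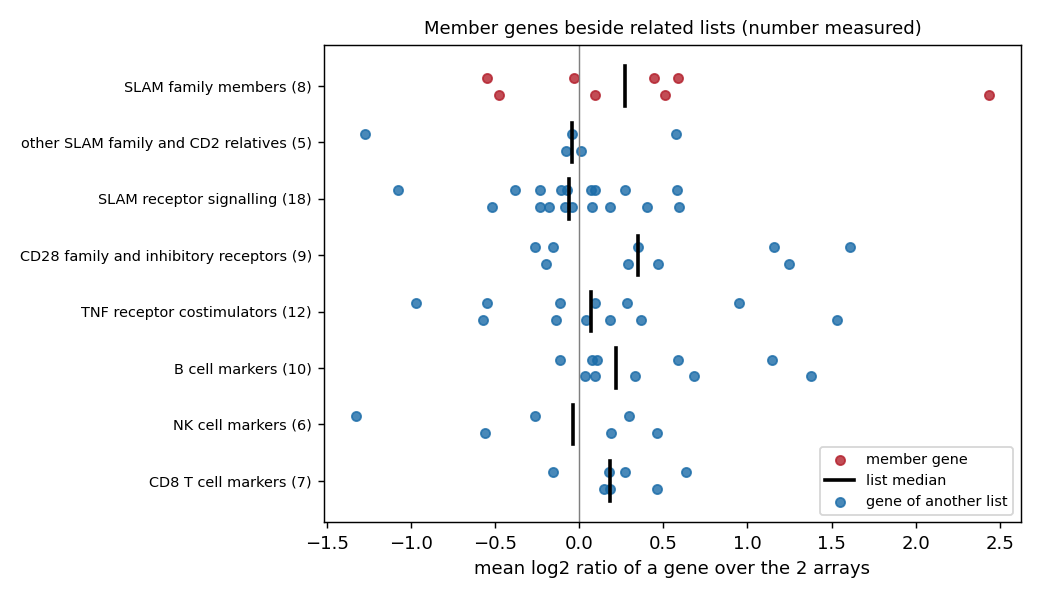
Mean log2 ratio over the 2 arrays of each measured gene (points) in the SLAM family and in 7 related lists, with the list median as a bar and the number of genes in brackets; points are offset vertically to stay visible. The family median is 0.27 and Slamf6 at 2.44 is the farthest point shown, while Sh2d1b1 (-1.28) and Klrb1c (-1.33) are the lowest of the relatives and of the natural killer markers.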

How the data were processed

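The deposited table held 1 signed log2 ratio per probe and array, to 2 decimals. Its log base, numerator, dyes, background correction and normalization are not given in the sources used here, and base 2 is assumed. Array medians were 0.01 and 0.02, so a shift shared by all genes would not be seen. Of 21919 probes, 21427 had both values, 340 had none on array 1 and 300 none on array 2. The columns were not copies, with 248 probes equal. Symbols came from the platform's annotation table: 15998 had 1 symbol, 288 several and 5633 none. The Entrez IDs of the 8 SLAM probes carried the same symbols in RefSeq (GRCm38.p6).

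Gene values are means over the probes of a gene, except that the genes nearest to Slamf6 are given by their nearest probe. limma 3.58.1 (R 4.3.3) tested the mean of both arrays against 0, two-sided, with Benjamini-Hochberg adjustment over all probes at 0.05; 0 probes passed, with 3186 at an unadjusted p under 0.05. The fit was also run on data simulated from its own fitted spread, which does not show what changes it can detect here. Spot intensities were not used here, so signal over background is unknown, and the 2 arrays limit the precision.

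The family and all lists were chosen with earlier results of these data known. Named genes were every family gene and listed relative, signalling genes at least 1.5-fold on both arrays, the 5 genes nearest to Slamf6, the chromosome 1 neighbours and defining markers. Other list genes are examples chosen after their values were seen. Alternatives were median centring, quantile normalization, other priors, 1 value per gene and the probe with the largest absolute mean. Single-array probes, another fold and leaving out each array were further alternatives.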

Additional observations from a re-analysis of the deposited data

How the results depend on the processing

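The number of probes that passed limma's test stayed at 0 under median centring, quantile normalization, a robust prior and 1 value per gene, and was 241 with each probe's own spread, where 248 probes have identical values on both arrays. On both arrays 183 probes were at least 2-fold on the same side. There were 880 at 1.5-fold, 577 if the values are natural logs (an alternative chosen after seeing the data), and between 453 and 1003 when 1 array alone was asked, which drops the demand for agreement. The count of 5 SLAM family genes positive on both arrays held under centring and quantile normalization, and 6 were positive on either single array. Cd244a, at 0.01 on array 2, became negative on both arrays with median centring. The family median of 0.27 was between 0.20 and 0.26 on single arrays and 0.095 without Slamf6 (added after seeing the data). The mean of Slamf6 was 2.32 after quantile normalization and no family gene moved by more than 0.015 with centring. Cd48 and Cd244a changed sign with the array left out. limma cannot test a single array, so no test was run there. No paired analysis was possible because the series holds 1 group of ratios.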
